A study of Mus musculus with 47 samples.

Results

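The luminal lineage transcription factors are 10 genes, *Elf5*, *Gata3*, *Foxa1*, *Ehf*, *Elf3*, *Grhl1*, *Grhl2*, *Cebpb*, *Nfib* and *Spdef*, chosen by name for their known roles in luminal epithelium. The choice was made with earlier results of these data known. All 10 were among the 17078 genes of the deposited table and all 10 were tested. They were followed in luminal (Lin-CD24+CD29lo) and basal (Lin-CD24+CD29hi) cells that had been sorted by flow cytometry from mammary glands of FVB/N mice, an inbred strain, here without transgene or drug. RNA-seq values of 46 libraries were analysed, 24 luminal and 22 basal.

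The 8 time points follow the gland through 1 reproductive cycle. W10 mice were virgins of 10 weeks and M4 mice were never pregnant at 4 months. P3.5 and P14.5 are days 3.5 and 14.5 of pregnancy, L3 and L10 are days 3 and 10 of lactation, Id2 is day 2 of involution after forced weaning, and Iw4 is 4 weeks of involution. Each time point had 3 luminal and 3 basal libraries, except P14.5 and L10 with 2 basal libraries each. Each library came from 1 sort of 4 pooled mice, and the luminal and basal libraries of a sort share those mice. Libraries held 4398806 to 20023054 counted reads, with a median of 8464889 in luminal and 9055458.5 in basal libraries.

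These factors belong to a few DNA-binding families. ELF5, EHF and ELF3 are ETS proteins of epithelia, and ELF5 drives the secretory (alveolar) programme of the luminal layer. GATA3 is needed to form and keep luminal cells, and FOXA1 opens chromatin for the oestrogen receptor in the hormone-sensing luminal cells. GRHL1 and GRHL2 are grainyhead proteins that keep epithelial junction genes active, C/EBPβ and NFIB act in ductal growth and in milk gene transcription, and SPDEF is an ETS protein of secretory epithelia.

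Levels are given as CPM, the authors' read counts scaled to a common library size, and differences as log2(CPM + 1) with the standard error (SE) of limma's fit. A gene was called changed at a fold of at least 2 and a Benjamini-Hochberg adjusted p under 0.01 over all 17078 genes, and every adjusted p here is limma's unless another tool is named. The pseudocount of 1 makes the differences of genes near 0 CPM too small. Where libraries of a factor are said not to overlap and no share of all genes is given, that share was not counted.

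The sorted fractions were checked against 6 marker genes for each cell type. The luminal marker sum (*Krt8*, *Krt18*, *Krt19*, *Krt7*, *Epcam*, *Cd24a*) lay between 3564 and 8880 CPM in luminal libraries and between 185 and 2151 CPM in basal libraries. In 20 basal libraries the basal marker sum (*Krt5*, *Krt14*, *Krt17*, *Acta2*, *Myh11*, *Oxtr*) was at least 10047 CPM, but in basal Id2 replicates 2 and 6 it was 854 and 817 CPM. Replicate 6 carried a fibroblast marker sum of 71669 CPM, led by *Col1a1* at 27788 CPM. Replicate 2 carried an endothelial sum of 9169 CPM, led by *Cdh5* at 4160 CPM. The third basal Id2 library, replicate 4, had a basal sum of 14070 CPM with a fibroblast sum of 10155 CPM and a pericyte sum of 10770 CPM, led by *Rgs5* at 6932 CPM. None of the fibroblast, endothelial or pericyte markers was at 0 in these 3 libraries. Replicates 2 and 6 thus went against their label, and calls of the reported fit on the factors that rest on basal Id2 libraries are given with and without them. Calls gained under another scaling, pseudocount or tool are given with all 3 libraries only. Pericyte sums were also high in basal L10 libraries, at 8683 to 15512 CPM, against 95.4 to 122 CPM in basal W10 libraries. Basal marker sums of these L10 libraries were 44562 to 49760 CPM. The part of the pericyte markers in the L10 differences was not tested.

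**Figure D1:**
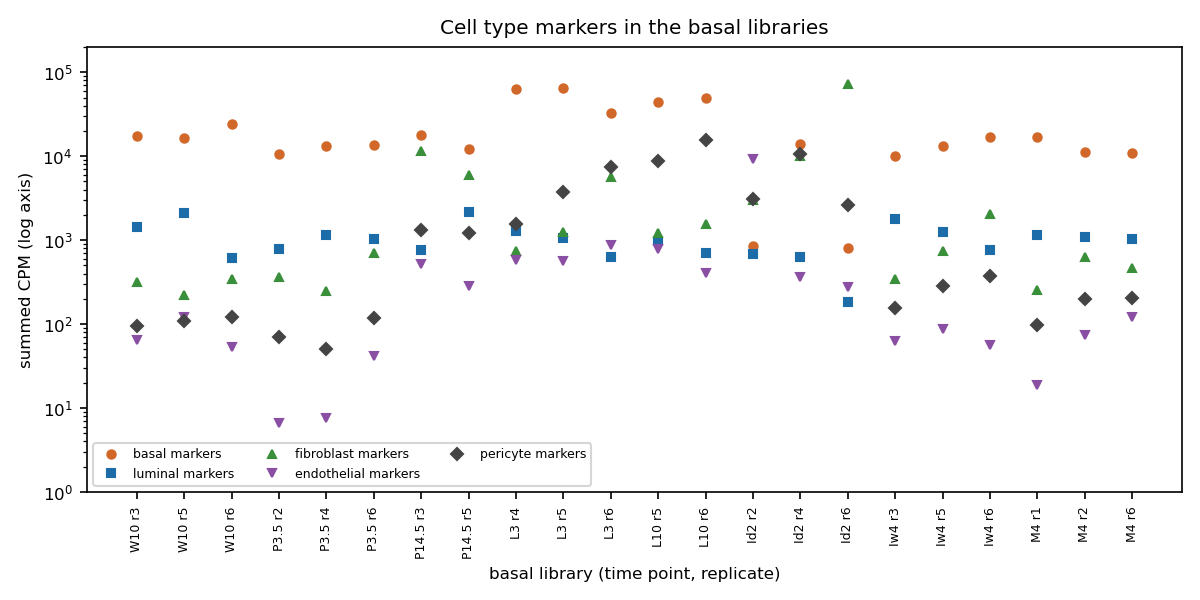
Summed CPM of 5 marker lists (6 genes each, log axis) in each of the 22 basal libraries, ordered by time point. The basal sum of Id2 replicates 2 and 6 lies at 854 and 817 CPM, against at least 10047 CPM in the other 20 libraries, and the fibroblast sum of Id2 replicate 6 reaches 71669 CPM.

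The question of the comparison between the sorted fractions is how far each factor marks the luminal compartment. Averaged over the 8 time points, 5 of the 10 factors were called higher in luminal cells and none was called lower, against 7.35% of all genes called higher. The 5 were *Elf5*, *Ehf*, *Foxa1*, *Grhl1* and *Elf3*, with luminal levels 4.79-fold (*Elf3*) to 11.0-fold (*Elf5*) above basal levels. Their luminal and basal libraries did not overlap at any of the 8 time points, with luminal levels above basal ones, as in 2.96% of all genes. The same 5 were called when basal Id2 replicates 2 and 6 were left out. *Gata3*, *Grhl2*, *Cebpb* and *Nfib*, all well detected in both fractions, were called at 1, 2, 0 and 1 of the 8 time points. The median difference of the 10 factors was 1.60 log2 units, against -0.02 for all genes tested. The factors were chosen for luminal roles, so neither the count of calls nor this median tests the set. In bulk libraries, fewer cells of a type and less RNA per cell cannot be told apart.

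**Figure D2:**
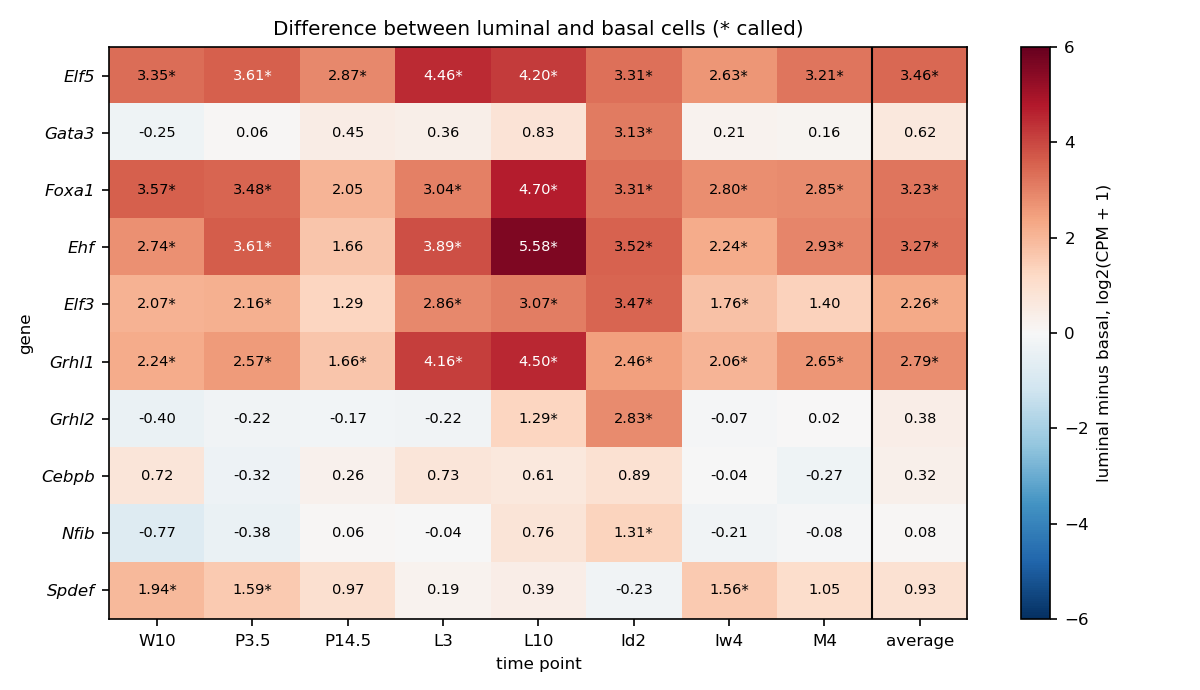
Luminal minus basal difference of each factor (log2(CPM + 1)) at each time point and averaged, with red for higher in luminal cells and an asterisk for calls. Rows of *Elf5*, *Ehf*, *Foxa1*, *Grhl1* and *Elf3* are red throughout, while *Gata3* and *Nfib* carry an asterisk at Id2 alone and *Grhl2* at L10 and Id2.

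Of the 5 factors, *Elf5* (ENSMUSG00000027186, chr2:103411688-103450989, plus strand, positions in GRCm38) was highest in the secretory stages. Luminal libraries read 179, 139 and 297 CPM at W10, 127, 116 and 172 CPM at P3.5 and 451, 452 and 415 CPM at P14.5. They read 680.2, 360.4 and 899 CPM at L3, 354, 347 and 590.4 CPM at L10 and 619, 541 and 473 CPM at Id2, and 219.8 to 325 CPM at Iw4 and M4. At the reported scaling every luminal library from P14.5 to Id2 was thus above every other luminal library, the closest being 347 and 325 CPM. This split was seen in the values, and the share of all genes that split in the same way was not counted. When the scaling left out milk protein genes, luminal *Elf5* did not pass the F test over time points (adjusted p = 0.131). Basal libraries lay at 5.62 to 146 CPM. The highest was P14.5 replicate 5, which also had the highest luminal marker sum of the basal libraries (2151 CPM) and a milk protein gene sum of 48885 CPM, against 5801 CPM in P14.5 replicate 3. The part of these genes in the basal *Elf5* value was not tested.

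The averaged difference of *Elf5* was 3.46 ± 0.19 log2 units (SE, adjusted p = 2.10e-18). It was called at each time point, with differences from 2.63 (Iw4) to 4.46 (L3). With only the libraries compared, the calls at P14.5 (adjusted p = 0.0264) and L10 (0.0104) were lost. At P14.5 the difference was 2.87 ± 0.58 (adjusted p = 0.000288), and without P14.5 basal replicate 3 it was 1.59 (adjusted p = 0.138).

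*Ehf* (ENSMUSG00000012350, chr2:103263433-103303278, minus strand), an ETS gene that lies near *Elf5* on the same chromosome, had luminal libraries at 187 to 853 CPM. Its mean was 693 ± 243 CPM (SD, n = 3) at L10 and 285 ± 50.6 CPM (SD, n = 3) at P3.5, and neighbours in the order of its 8 luminal means all overlapped. Basal libraries read 117 and 164 CPM at P14.5, above every other basal library, and 22.2 and 7.22 CPM at L10. The averaged difference was 3.27 ± 0.16 (adjusted p = 7.28e-20). In this fit, with its pseudocount of 1, the widest difference of any factor was that of *Ehf* at L10, 5.58 ± 0.49 (adjusted p = 4.78e-11). As a ratio of luminal to basal mean CPM at L10, *Foxa1* (47.7) lay slightly above *Ehf* (47.1).

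*Elf3* (ENSMUSG00000003051, chr1:135253575-135258568, minus strand) had its lowest luminal mean at P14.5, where libraries read 26.2, 30.2 and 27.3 CPM. The luminal libraries read 101, 97.1 and 119.9 CPM at W10, 46.6, 46.3 and 44.9 CPM at P3.5 and 163, 92.3 and 101 CPM at Id2. At L3, replicate 6 read 16.1 CPM while the other two read 83.2 and 82.9 CPM. Basal libraries lay at 3.72 to 28.9 CPM, and the averaged difference was 2.26 ± 0.17 (adjusted p = 1.78e-14). It was called at each time point but P14.5 and M4. Of these calls, L3 (adjusted p = 0.0217), L10 (0.0113), Id2 (0.0159) and Iw4 (0.0138) were lost with only the libraries compared. The Iw4 call (1.76 ± 0.46, adjusted p = 0.00503) was lost without any one of Iw4 luminal replicates 3 and 5 and basal replicate 6 (1.75, 1.48 and 1.45, adjusted p of 0.0195 to 0.0553), and the P3.5 call without P3.5 basal replicate 2 (1.74, adjusted p = 0.0138). An antisense gene (*Gm26642*) overlaps 7.31% of its exon bases, and where reads are counted without strand the reads of both cannot be told apart.

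*Foxa1* (ENSMUSG00000035451, chr12:57540628-57546916, minus strand) had its lowest luminal level in late pregnancy. Luminal libraries read 134, 135 and 160.1 CPM at W10, 85.3, 74.1 and 90.8 CPM at P3.5 and 12.1, 7.47 and 13.8 CPM at P14.5. They then read 31.2, 59.9 and 9.12 CPM at L3, 46.4, 65.0 and 40.6 CPM at L10 and 47.0, 27.9 and 52.5 CPM at Id2. At Iw4 they read 93.2, 129 and 52.2 CPM and at M4 134, 126 and 89.6 CPM. In the order of the means (W10, M4, Iw4, P3.5, L10, Id2, L3, P14.5), P3.5 and L10 were the only neighbours whose libraries did not overlap. Basal libraries lay at 0 to 27.2 CPM. The averaged difference was 3.23 ± 0.24 (adjusted p = 2.35e-14), and P14.5 was the time point without a call (2.05 ± 0.75, adjusted p = 0.0434). The Iw4 call was lost with edgeR (adjusted p = 0.0146), with a pseudocount of 0.1 (0.0323) and without any one of Iw4 luminal replicates 3 and 5 and basal replicate 6 (2.74, 2.51 and 2.14). The M4 call was lost with a pseudocount of 0.1 (adjusted p = 0.032) and the L3 call without L3 basal replicate 6 (2.25, adjusted p = 0.0104). Calls at L3 (adjusted p = 0.0567), Id2 (0.0128) and Iw4 (0.0183) were also lost with only the libraries compared.

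*Grhl1* (ENSMUSG00000020656, chr12:24572283-24617391, plus strand) was at 37.1 to 132 CPM in luminal and 0.095 to 31.4 CPM in basal libraries. Basal libraries read 24.2 and 31.4 CPM at P14.5, 1.68, 2.66 and 1.02 CPM at L3 and 7.25 and 0.095 CPM at L10. Its basal level was thus highest in late pregnancy and lowest in lactation. The averaged difference of 2.79 ± 0.15 (adjusted p = 2.73e-18) was widest at L10 (4.50) and L3 (4.16). At P14.5 it was 1.66 ± 0.47 (adjusted p = 0.00886), a call that was lost with edgeR (adjusted p = 0.0245), a pseudocount of 0.1 (0.0701), median-ratio scaling (0.013) and only the libraries compared (0.0192), and without any one of 17 libraries. The Iw4 call was lost with a pseudocount of 0.1 (adjusted p = 0.0108), and the L10 call with only the libraries compared (0.0248). With 1 library left out, the L10 difference went as low as 3.05, below the 4.16 at L3. As a ratio of luminal to basal mean CPM, L3 (27.4) lay above L10 (18.3).

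The promoters of *Foxa1* and *Elf5* are shown because at P14.5 *Foxa1* was at its lowest luminal mean while *Elf5* was above every W10, P3.5, Iw4 and M4 library. Each sequence holds the 250 bases before an annotated RefSeq start in GRCm38.p6, 5′ to 3′ on the strand of the gene, with capitals for matches to the motifs searched. *Foxa1* is from chr12:57546112-57546361 (minus strand), *Elf5* start 1 from chr2:103411848-103412097 and *Elf5* start 2 from chr2:103423818-103424067 (both plus strand). Each window lies inside the span given above for its gene, which came from another annotation (GENCODE M21).
Foxa1: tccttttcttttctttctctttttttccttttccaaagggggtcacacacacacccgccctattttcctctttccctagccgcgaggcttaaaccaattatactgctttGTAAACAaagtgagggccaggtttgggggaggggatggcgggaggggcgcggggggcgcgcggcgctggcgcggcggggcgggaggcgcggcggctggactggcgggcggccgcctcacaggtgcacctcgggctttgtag
Elf5 start 1: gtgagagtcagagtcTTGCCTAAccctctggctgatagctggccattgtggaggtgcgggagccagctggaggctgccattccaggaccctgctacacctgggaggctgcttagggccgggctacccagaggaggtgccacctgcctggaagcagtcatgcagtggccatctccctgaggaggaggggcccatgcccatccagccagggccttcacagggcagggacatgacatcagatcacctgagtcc
Elf5 start 2: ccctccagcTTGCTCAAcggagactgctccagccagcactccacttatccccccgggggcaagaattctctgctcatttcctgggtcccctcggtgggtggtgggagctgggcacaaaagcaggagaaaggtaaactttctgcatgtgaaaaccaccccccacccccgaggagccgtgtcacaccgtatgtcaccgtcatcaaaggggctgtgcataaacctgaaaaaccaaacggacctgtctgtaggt

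Motifs of 7 families were searched on both strands. The *Foxa1* window held 1 match, to the forkhead letters read on the opposite strand (GTAAACA), 141 bases before the start. Each *Elf5* window held 1 match to the C/EBP letters, 235 and 241 bases before its start. Among all 32851 windows of this length, the share with a match was as follows for each motif, with its letters: forkhead (TGTTTAC, 3.17%), C/EBP (TTGCNNAA, 9.56%), the GATA motif (AGATAA, 9.99%), ETS (AGGAAG, 29.5%), GRHL (AACCNGGTT, 0.24%), STAT (TTCNNNGAA, 7.02%) and NFI (TTGGC, 41.5%). Of the 10 factors, 7 had a window, all but *Ehf*, *Grhl2* and *Nfib*. A match is a run of letters, and binding was not measured.

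Of the factors found in both fractions, *Gata3* (ENSMUSG00000015619, chr2:9857078-9890034, minus strand) had luminal libraries at 69.0 to 211 CPM and, outside Id2, basal libraries at 63.5 to 204 CPM. At Id2 the basal libraries read 15.1, 17.9 and 8.89 CPM for replicates 2, 4 and 6, below every other basal library, and the luminal libraries 126, 109 and 143 CPM. The averaged difference of 0.62 ± 0.10 (adjusted p = 1.98e-06) was under the fold of 2, and without Id2 it was 0.26 ± 0.11 (adjusted p = 0.0393). Id2 was the one time point with a call in this fit (3.13 ± 0.28, adjusted p = 2.10e-10). Without basal Id2 replicates 2 and 6 the difference was 2.74 (adjusted p = 1.22e-06). When the scaling left out milk protein genes, L10 was called too (1.17, adjusted p = 0.00308, against 0.83 as reported). Exons of *9230102O04Rik* and the antisense gene *Gm13256* overlap 5.83% of its exon bases.

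*Grhl2* (ENSMUSG00000022286, chr15:37233036-37363569, plus strand) also had its lowest basal level at Id2. Luminal libraries lay at 65.8 to 152 CPM. Basal libraries lay at 89.2 to 184 CPM outside lactation and Id2, and read 162, 119 and 47.6 CPM at L3, 58.5 and 34.6 CPM at L10 and 21.4, 20.8 and 10.2 CPM at Id2. The averaged difference was 0.38 ± 0.11 (adjusted p = 0.00329), under the fold of 2, and without Id2 0.04 ± 0.12. It was called at Id2 (2.83 ± 0.31, adjusted p = 9.28e-09) and at L10 (1.29 ± 0.34, adjusted p = 0.00296). Without basal Id2 replicates 2 and 6 the Id2 difference was 2.52 (adjusted p = 1.96e-05). The L10 call was lost without L10 basal replicate 6 (0.92, adjusted p = 0.12) or without L10 luminal replicate 6 (1.16, adjusted p = 0.0165). It was also lost with only the libraries compared (adjusted p = 0.045).

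*Nfib* (ENSMUSG00000008575, chr4:82290173-82705750, minus strand) was abundant in both fractions, at 413 to 990.1 CPM in luminal and 278 to 947 CPM in basal libraries. At W10 the basal libraries (947, 843 and 942 CPM) lay above the luminal ones (413, 503 and 729.9 CPM). At Id2 the luminal libraries (739.6, 775 and 990.1 CPM) lay above the basal ones (415, 319 and 278 CPM). For neither separation was the share of all genes counted. The averaged difference was 0.08 ± 0.07 (adjusted p = 0.344), and without Id2 it had the opposite sign (-0.09 ± 0.08, adjusted p = 0.325). The single call in this fit was at Id2 (1.31 ± 0.20, adjusted p = 3.88e-06). Without basal Id2 replicates 2 and 6 the difference was 1.38 (adjusted p = 0.000354). When the scaling left out milk protein genes, L10 was called too (1.10, adjusted p = 0.000449, against 0.76 as reported).

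*Cebpb* (ENSMUSG00000056501, chr2:167688915-167690418, plus strand) was called at no time point. Luminal libraries read 17.1, 15.7 and 19.1 CPM at P3.5 and 91.7, 73.6 and 67.1 CPM at Id2. At W10, replicate 3 read 114 CPM while the other two read 15.8 and 32.6 CPM. Basal libraries lay at 15.3 to 49.4 CPM, below the luminal ones at L3, L10 and Id2, a pattern whose share of all genes was not counted. The averaged difference was 0.32 ± 0.13 (adjusted p = 0.0269). *Tmem189* on the opposite strand overlaps 20.7% of the *Cebpb* exon bases.

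*Spdef* (ENSMUSG00000024215, chr17:27714352-27728955, minus strand) was close to the limit of detection, where 3 reads correspond to 0.170 to 1.05 CPM in these libraries. Luminal libraries held 65, 52 and 27 reads at W10 (6.55, 3.64 and 3.36 CPM), 4, 3 and 1 reads at L3, 3, 0 and 0 reads at Id2 and 25, 13 and 25 reads at Iw4. No basal library held more than 12 reads. The averaged difference of 0.93 ± 0.11 (adjusted p = 5.51e-09) missed the fold of 2. It passed it without Id2 (1.10 ± 0.12, adjusted p = 7.34e-10), with a pseudocount of 0.1 (1.92), with the scaling that left out milk protein genes (1.07) and with edgeR (2.54, adjusted p = 7.77e-06). It was called higher in luminal cells at W10, P3.5 and Iw4, but with edgeR the W10 (adjusted p = 0.0102) and Iw4 (0.0262) calls were lost, and with only the libraries compared the P3.5 call was lost (limma, adjusted p = 0.0114).

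**Figure D3:**
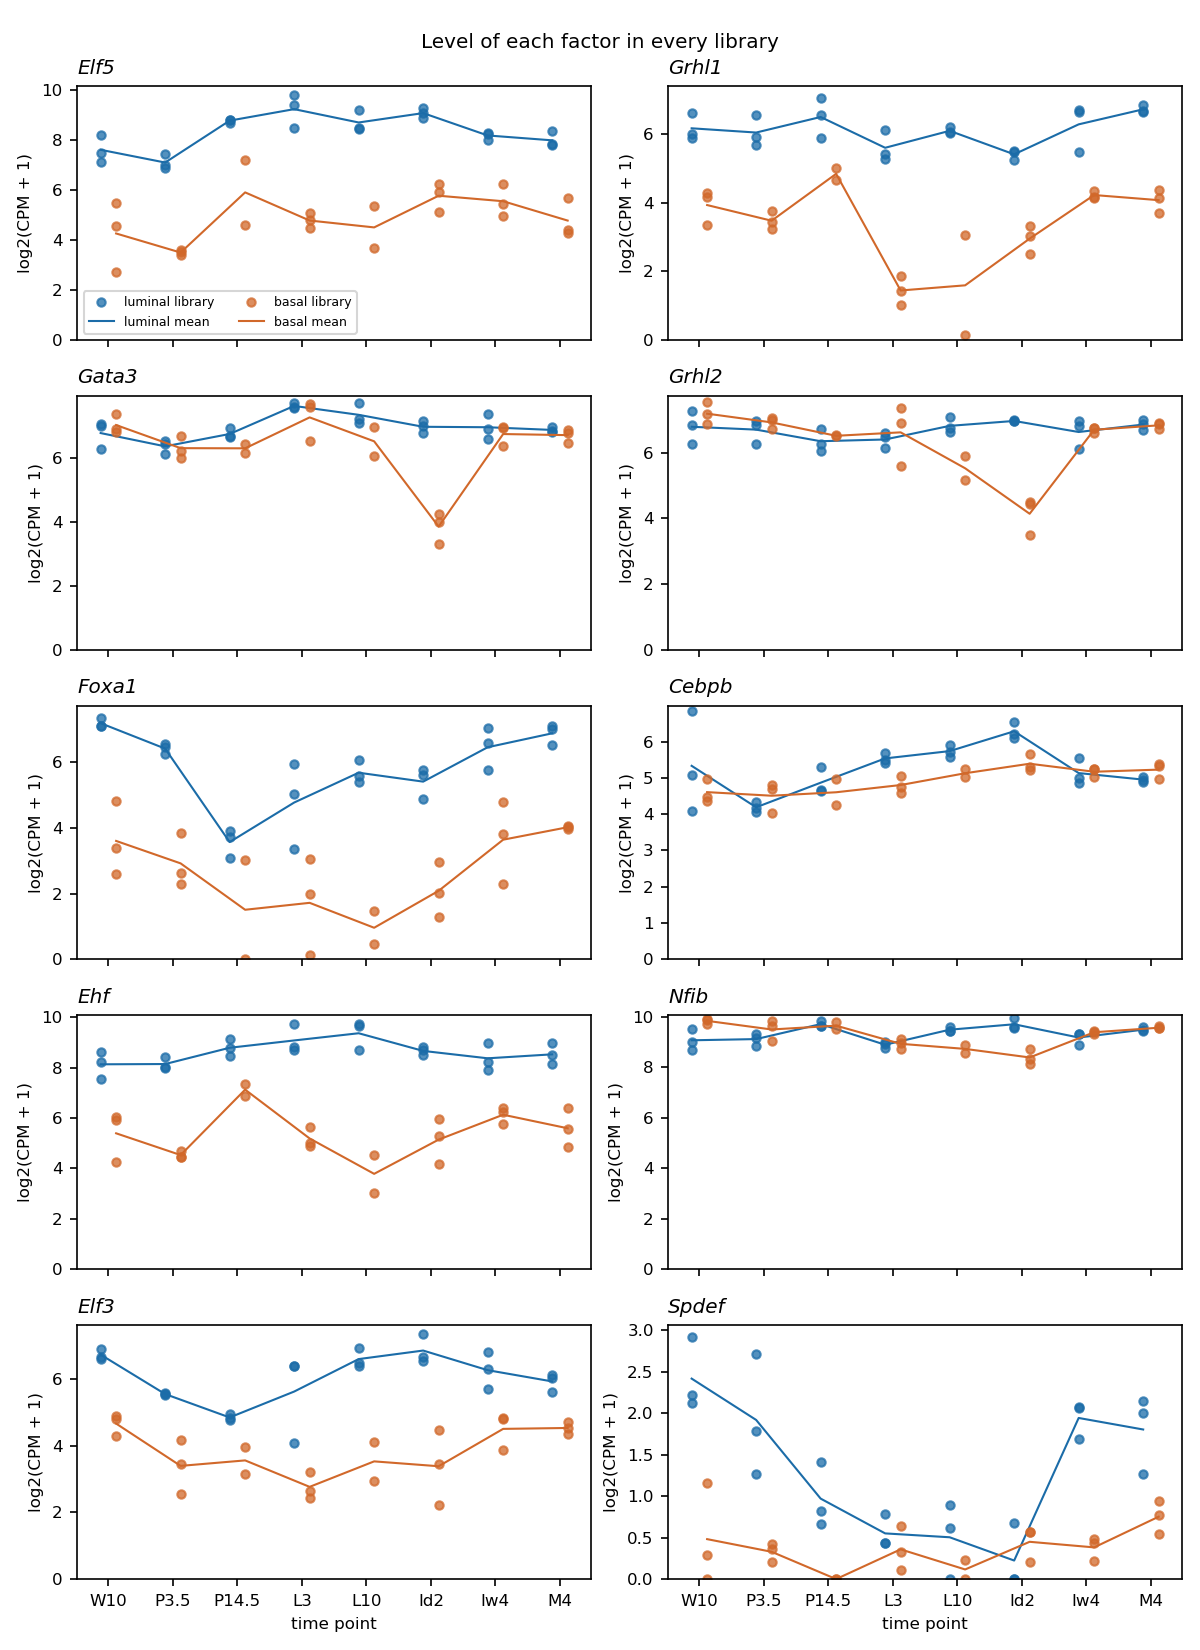
Level of each factor as log2(CPM + 1) in each of the 24 luminal (blue) and 22 basal (orange) libraries by time point, with lines through the means. *Foxa1* reaches its lowest luminal level at P14.5, and basal *Gata3*, *Grhl2* and *Nfib* reach their lowest level at Id2.

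Per kilobase of exon and averaged over the time points, an order that does not hold at each time point, luminal levels were highest for *Ehf* (76.7 CPM per kb), *Elf5* (62.8) and *Nfib* (43.9). Then came *Elf3* (33.7 CPM per kb), *Gata3* (32.5), *Cebpb* (28.3), *Foxa1* (21.5), *Grhl1* (13.0), *Grhl2* (12.2) and *Spdef* (0.829). For *Elf5* the time-point means ran from 23.5 to 110.0 CPM per kb and for *Nfib* from 31.6 to 55.8 CPM per kb. Basal levels per kilobase were highest for *Nfib* (42.7 CPM per kb), *Gata3* (24.4) and *Cebpb* (20.3), with *Ehf* at 9.48 and *Elf5* at 6.52 CPM per kb.

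By time point, 6 factors were called higher in luminal cells at W10 (5.12% of all genes were called higher), 6 at P3.5 (4.64%), 2 at P14.5 (3.39%) and 5 at L3 (9.87%). The counts were 6 at L10 (10.9%), 8 at Id2 (9.39%), 6 at Iw4 (3.75%) and 4 at M4 (4.24%). No factor was called lower in luminal cells at any time point. At P14.5 the called factors were *Elf5* and *Grhl1*, and the 2 basal libraries of that time point held fibroblast marker sums of 11676 and 5943 CPM, against at most 2031 CPM in the basal libraries of W10, P3.5, Iw4 and M4. The part of these markers in the P14.5 result was not tested. At Id2 all 8 factors kept their call when basal Id2 replicates 2 and 6 were left out. With only the libraries compared, *Foxa1* (adjusted p = 0.0128), *Elf3* (0.0159) and *Nfib* (0.0252) lost theirs. That fit also lost 1 of 6 calls at P3.5, 2 of 2 calls at P14.5, 2 of 5 calls at L3, 4 of 6 at L10 and 2 of 6 at Iw4, and gained *Ehf* at P14.5 (adjusted p = 0.00757) and *Elf3* at M4 (0.00163). With the sort as a block, *Ehf* at P14.5 (1.69, adjusted p = 0.00431) and *Spdef* at M4 (1.05, adjusted p = 0.00698) were also called, against adjusted p values of 0.0112 and 0.0134 without it. *Ehf* at P14.5 was also called with the mean filter of 5 CPM (adjusted p = 0.00904) and without basal Id2 replicates 2 and 6 (0.00609), *Spdef* at M4 when the scaling left out milk protein genes (0.00443) and *Spdef* at P14.5 with a pseudocount of 0.1 (0.00555).

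The time course asks when each factor moves. In luminal cells 7 of the 10 factors varied over the 8 time points (F test, 34% of all genes), all but *Ehf*, *Grhl1* and *Grhl2*. *Spdef* (adjusted p = 4.34e-07), *Cebpb* (0.000367) and *Foxa1* (0.000373) had the smallest values. *Gata3* (0.00999) was at the threshold, and with the sort as a block its adjusted p was 0.0129. With a pseudocount of 0.1, *Foxa1* (0.0276) and *Gata3* (0.0113) did not pass. When the scaling left out milk protein genes, *Elf5* (from 0.00607 to 0.131), *Gata3* (0.129) and *Cebpb* (0.0183) no longer passed. *Grhl1* passed under that scaling (from 0.113 to 0.00132). Leaving out 1 library each, *Gata3* missed the threshold in 29 of the 46 fits, *Elf5* in 9, *Elf3* in 4 and *Nfib* in 2, with adjusted p values up to 0.0349 for *Gata3* and 0.0209 for *Elf5*. *Nfib* also missed it with only the luminal libraries fitted (adjusted p = 0.0118). In basal cells 8 of the 10 varied (44.5% of all genes), all but *Cebpb* and *Spdef*. *Gata3* had the smallest basal value (adjusted p = 5.20e-11, and 4.61e-06 without basal Id2 replicates 2 and 6). The same 8 passed without those 2 libraries. With only the basal libraries fitted, *Foxa1* (adjusted p = 0.0396), *Elf3* (0.0233) and *Elf5* (0.0581) did not pass, and *Elf3* did not pass without L3 basal replicate 5 (0.0109) or 6 (0.0124).

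Step by step in luminal cells, few factors passed the test. None was called at P3.5 against W10 (1.82% of all genes), L3 against P14.5 (6.17%), L10 against L3 (0.381%), Id2 against L10 (4.56%) or Iw4 against M4 (0%). At an unadjusted p under 0.05, limma gave 2, 3, 2, 0 and 0 factors in these comparisons, against 19%, 27.1%, 15.5%, 25.1% and 2.3% of all genes. With edgeR *Cebpb* was called lower at P3.5 than at W10 (-1.65, adjusted p = 0.00763) and no factor was called in the rest of these comparisons. *Cebpb* read 114 CPM in W10 luminal replicate 3, against 15.8 and 32.6 CPM in replicates 5 and 6. P3.5 luminal libraries lay at 15.7 to 19.1 CPM, and the edgeR call without that W10 library was not tested. From P3.5 to P14.5, which share an amplification batch but were sequenced on different lanes, *Foxa1* fell 7.13-fold (-2.83 ± 0.67, adjusted p = 0.00923, with 1.52% of all genes called). All 3 P14.5 libraries lay below all 3 P3.5 libraries, as in 15.7% of all genes. The call was lost with edgeR (adjusted p = 0.0278), with a pseudocount of 0.1 (0.10) and without any one of 29 of the 46 libraries. In these luminal libraries hormone-sensing genes summed to 446 to 698 CPM at P14.5 and 1405 to 1701 CPM at P3.5. Basal markers summed to 223 to 356 CPM at P14.5 and 84.4 to 199 CPM at P3.5. Endothelial, adipocyte and immune sums were also higher at P14.5 without overlap, while luminal, fibroblast and pericyte sums overlapped. The part of these genes in the result was not tested. *Elf5* had a difference of 1.68 ± 0.52 in this step (adjusted p = 0.0609). With only the luminal libraries fitted it was called (adjusted p = 0.00233). From Id2 to Iw4 (10.5% of all genes) *Spdef* rose by 1.72 ± 0.31 (adjusted p = 0.000118, with edgeR 0.0146). With milk protein genes left out of the scaling, *Nfib* was called lower at L3 than at P14.5 (-1.23, adjusted p = 9.07e-05) and *Grhl1* higher at Iw4 than at Id2 (1.52, adjusted p = 0.00601). In luminal cells that scaling moved the median of all genes by -0.25 log2 units from P14.5 to L3 and by 0.45 from Id2 to Iw4.

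In basal cells, from P3.5 to P14.5 (3.64% of all genes) *Ehf* rose by 2.60 ± 0.49 (adjusted p = 0.000663) and *Elf5* by 2.41 ± 0.58 (adjusted p = 0.00642). Without P14.5 basal replicate 5, the library rich in milk transcripts, the values were 2.35 (adjusted p = 0.0193) and 1.12 (adjusted p = 0.355). The *Elf5* call was also lost without any one of P3.5 basal replicates 2, 4 and 6 (2.36, 2.42 and 2.45). With only the basal libraries fitted both calls were lost (adjusted p = 0.0115 for *Ehf* and 0.0593 for *Elf5*), and the *Elf5* call also when the scaling left out milk protein genes (2.27, adjusted p = 0.012). Basal P14.5 libraries held fibroblast marker sums of 5943 to 11676 CPM, against 248 to 696 CPM at P3.5. Pericyte sums were 1227 to 1322 CPM against 50.8 to 120 CPM, and endothelial sums 284 to 524 CPM against 6.56 to 42.1 CPM. Adipocyte and immune sums were also higher at P14.5 without overlap, while luminal and basal sums overlapped. The part of these markers in the result was not tested.

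From P14.5 to L3 (3.89% of all genes) basal *Grhl1* had a difference of -3.40 ± 0.47 (adjusted p = 1.58e-05) and *Ehf* of -1.94 ± 0.49 (adjusted p = 0.00846), both called. The *Ehf* call was lost with edgeR (adjusted p = 0.0109), with a pseudocount of 0.1 (0.0109), with only the basal libraries fitted (0.0429) and without any one of 7 libraries. Basal libraries held fibroblast sums of 752 to 5651 CPM at L3 against 5943 to 11676 CPM at P14.5. Pericyte sums were 1547 to 7380 CPM against 1227 to 1322 CPM, and basal marker sums 33043 to 64496 CPM against 12312 to 17955 CPM. The part of these markers in this step was not tested. From L10 to Id2 (13.3% of all genes) *Gata3* (-2.67 ± 0.31, adjusted p = 7.24e-08) and *Grhl2* (-1.39 ± 0.34, adjusted p = 0.00295) fell. Without basal Id2 replicates 2 and 6 these were -2.28 (adjusted p = 0.000328) and -1.08 (adjusted p = 0.14). The *Grhl2* call was also lost without L10 basal replicate 5 (-1.01, adjusted p = 0.0788), without Id2 basal replicate 6 (-1.06, adjusted p = 0.0308) and with only the basal libraries fitted (adjusted p = 0.0159). With a pseudocount of 0.1 *Grhl1* was called higher in this step (2.50, adjusted p = 0.00624). Its L10 basal libraries read 7.25 and 0.095 CPM, the latter from 1 read, against 4.69 to 8.90 CPM at Id2. This call was not tested without L10 basal replicate 6 or without basal Id2 replicates 2 and 6. From Id2 to Iw4 (17.4% of all genes) both rose, *Gata3* by 2.90 ± 0.28 and *Grhl2* by 2.56 ± 0.31, and without those replicates by 2.51 (adjusted p = 8.26e-06) and 2.25 (adjusted p = 0.000148). *Nfib*, just under the fold of 2 (1.00 ± 0.20), passed it without them (1.06, adjusted p = 0.00719) and with edgeR (1.02, adjusted p = 0.000329). With milk protein genes left out of the scaling, *Grhl1* (1.81), *Elf3* (1.66), *Ehf* (1.56) and *Nfib* (1.58) were called higher from Id2 to Iw4 as well, and *Nfib* lower from P14.5 to L3 (adjusted p = 0.00607). In basal cells that scaling moved the median of all genes by 0.41 log2 units from Id2 to Iw4 and by -0.19 from P14.5 to L3. No factor was called at P3.5 against W10 (6.76%), L10 against L3 (1.14%) or Iw4 against M4 (0.00586%), with 2, 3 and 0 factors at an unadjusted p under 0.05 in limma, against 28.1%, 18.8% and 1.89% of all genes, and edgeR called none. Iw4 and M4 share their amplification batches, and no fit paired their libraries by batch. In either cell type, the steps from W10 to P3.5, P14.5 to L3, L10 to Id2 and Id2 to Iw4 join different amplification batches, so time point and batch cannot be told apart in them.

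Lactation (the mean of L3 and L10) was compared with the never-pregnant gland (the mean of W10 and M4), which was amplified in other batches. In luminal cells *Foxa1* and *Spdef* were called lower and none higher (13.2% of all genes called). *Foxa1* was at 42.0 CPM in lactation and 129.9 CPM in the never-pregnant gland (-1.80 ± 0.47, adjusted p = 0.00314). Without L3 luminal replicate 6 the difference was -1.45 (adjusted p = 0.0185), with edgeR the adjusted p was 0.0138, and with a pseudocount of 0.1 it was 0.0403. *Spdef* had a difference of -1.58 ± 0.22 (adjusted p = 8.40e-07). *Elf5* was at 538 CPM in lactation and 231 CPM in the never-pregnant gland, a difference of 1.17 ± 0.37 whose adjusted p of 0.0121 missed the threshold. It passed with only the luminal libraries fitted (adjusted p = 0.000249) and without any one of 8 libraries (0.00498 to 0.00933). When the scaling left out milk protein genes it was 0.71 (adjusted p = 0.135), and *Grhl1*, at -0.60 ± 0.30 as reported, was called lower (-1.06, adjusted p = 0.00504). *Ehf*, at 0.89 ± 0.31, was called higher without L10 luminal replicate 4 (1.06, adjusted p = 0.00983). Markers of other cell types were also higher in lactating luminal libraries, with 4 of 6 basal, 5 of 6 endothelial and 3 of 6 pericyte markers called, and with 2 of 5 immune and 1 of 3 adipocyte markers. Of 6 fibroblast markers, 1 was called lower. The basal marker sum was 359 to 2378 CPM in these libraries, highest in L10 replicate 5 and led there by *Krt5*, against 107 to 199.8 CPM at W10 and M4. The endothelial sum was 30.6 to 404 CPM against 4.67 to 29.4 CPM. The part of these markers in the result was not tested.

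In lactating basal cells 3 factors were called lower (16.5% of all genes called). They were *Grhl1* (-2.49 ± 0.32, adjusted p = 8.56e-08), *Foxa1* (-2.46 ± 0.50, adjusted p = 0.000184) and *Elf3* (-1.45 ± 0.35, adjusted p = 0.00116). The *Elf3* call was lost without L10 basal replicate 5 (-1.16, adjusted p = 0.0208). *Ehf* had -1.01 ± 0.33 (adjusted p = 0.0148), and was called with edgeR (adjusted p = 0.00913) and without basal Id2 replicates 2 and 6 (0.00891). With milk protein genes left out of the scaling, *Ehf* (-1.45), *Grhl2* (-1.40) and *Nfib* (-1.34) were called lower as well. Basal lactation libraries held pericyte marker sums of 1547 to 15512 CPM, against 95.4 to 205 CPM in basal W10 and M4 libraries. Of the 6 luminal markers, 3 were called lower (*Epcam*, *Krt18* and *Cd24a*) and 1 higher (*Krt7*), with a median of -0.46. Their sum was 625 to 1295 CPM in basal lactation libraries and 615 to 2113 CPM in basal W10 and M4 libraries. Of the 6 basal markers, 1 was called higher, and their sum was 33043 to 64496 CPM in basal lactation libraries against 11029 to 23973 CPM at W10 and M4. All 6 endothelial markers and all 3 adipocyte markers tested were called higher in basal lactation, with 2 of 6 fibroblast and 1 of 5 immune markers. The endothelial sum was 405 to 869.8 CPM against 18.9 to 122 CPM at W10 and M4, and the adipocyte sum 479.6 to 931 CPM against 12.6 to 66.9 CPM. The part of these marker lists in the result was not tested.

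The change with lactation differed between the cell types for 3 factors (10.3% of all genes). *Ehf* had 0.89 in luminal and -1.01 in basal cells (difference 1.90 ± 0.45, adjusted p = 0.00219). *Grhl1* had -0.60 and -2.49 (difference 1.89 ± 0.43, adjusted p = 0.00162). Without L10 basal replicate 6 both missed the threshold, at 1.52 and 1.16 (adjusted p = 0.0221 for each). *Spdef* had -1.58 and -0.38 (difference -1.20 ± 0.32, adjusted p = 0.0068), which edgeR did not call (adjusted p = 0.587). That call was also lost with a pseudocount of 0.1 (adjusted p = 0.147) and without any one of 13 libraries (0.0102 to 0.0178). For *Foxa1*, called lower in both cell types, the difference was 0.66 ± 0.69 (adjusted p = 0.559).

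W10 and Id2 shared an amplification batch, so early involution could be compared with the virgin gland inside it. They were sequenced on different lanes (2 for W10, 3 for Id2), so time point and lane cannot be told apart. In luminal cells *Spdef* was the single factor called (-2.19 ± 0.31, adjusted p = 3.05e-06, 10.4% of all genes called). *Elf5* had a difference of 1.47 ± 0.52 (adjusted p = 0.0385) and *Foxa1* of -1.77 ± 0.67 (adjusted p = 0.0548). With only the luminal libraries fitted both were called (adjusted p = 0.0014 and 0.00606), but when the scaling left out milk protein genes *Foxa1* was called (-2.27, adjusted p = 0.00959) and *Elf5* went under the fold of 2 (0.97, adjusted p = 0.174). *Cebpb* had 0.95 ± 0.35 (adjusted p = 0.0491), and without W10 luminal replicate 3, the library high in *Cebpb*, 1.71 (adjusted p = 3.09e-05). In luminal Id2 libraries 3 of 6 fibroblast, 3 of 6 pericyte and 4 of 5 immune markers were called higher than at W10, and 1 pericyte marker, *Notch3*, was called lower (-1.69 ± 0.48). Endothelial markers had 1 call higher and luminal markers 1 call lower, each of 6, and adipocyte markers 1 of 3 higher. The fibroblast sum of the luminal Id2 libraries was 223, 485 and 5192 CPM for replicates 2, 4 and 6, led by *Col1a1*, against 120.2 to 405 CPM at W10. The part of these markers in the result was not tested.

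In basal cells *Gata3*, *Grhl2* and *Nfib* were called lower at Id2 than at W10 (17.4% of all genes called). *Gata3* went from 112, 118 and 165 CPM to 15.1, 17.9 and 8.89 CPM, 9.06-fold lower (-3.18 ± 0.28, adjusted p = 5.43e-11). *Grhl2* went from 184, 116 and 142 CPM to 21.4, 20.8 and 10.2 CPM (-3.05 ± 0.31, adjusted p = 1.18e-09). *Nfib* went from 947, 843 and 942 CPM to 415, 319 and 278 CPM (-1.45 ± 0.20, adjusted p = 8.96e-07). For each of these genes all 3 Id2 libraries lay below all 3 W10 libraries, replicate 4 with its basal markers included, as in 21.2% of all genes. With replicate 4 as the sole basal Id2 library, assumed to vary like the other groups, the differences were -2.79 for *Gata3* (adjusted p = 1.14e-06), -2.74 for *Grhl2* (6.60e-06) and -1.51 for *Nfib* (0.000148). That library still held a fibroblast marker sum of 10155 CPM and a pericyte sum of 10770 CPM. Over the 3 Id2 libraries, all 6 basal markers were called lower than at W10 and 5 fibroblast, 4 endothelial and 6 pericyte markers, of 6 each, were called higher. So were 2 of 5 immune and 1 of 3 adipocyte markers, with an adipocyte sum of 242 to 3720 CPM against 12.6 to 39.4 CPM at W10. Of the 6 luminal markers, 3 were called lower at Id2 (*Krt8*, *Epcam* and *Krt19*, with a list median of -1.38), and their sum was 675, 625 and 185 CPM for replicates 2, 4 and 6, against 615 to 2113 CPM at W10. The part of these markers in the result was not tested. *Elf3* was called lower at Id2 as well with milk protein genes left out of the scaling (-1.62, adjusted p = 0.0059).

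The change from W10 to Id2 differed between the cell types for 4 factors (6.85% of all genes). The differences were 3.38 ± 0.40 for *Gata3* (adjusted p = 1.55e-07), 3.23 ± 0.44 for *Grhl2* (1.99e-06), 2.08 ± 0.29 for *Nfib* (3.25e-06) and -2.16 ± 0.44 for *Spdef* (0.000768). Without basal Id2 replicates 2 and 6 they were 2.99 (adjusted p = 2.65e-05), 2.92 (0.00013), 2.14 (4.33e-05) and -2.28 (0.00529). The *Spdef* call was lost with edgeR (adjusted p = 0.0789). This comparison was added after the Id2 values had been seen.

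**Figure D4:**
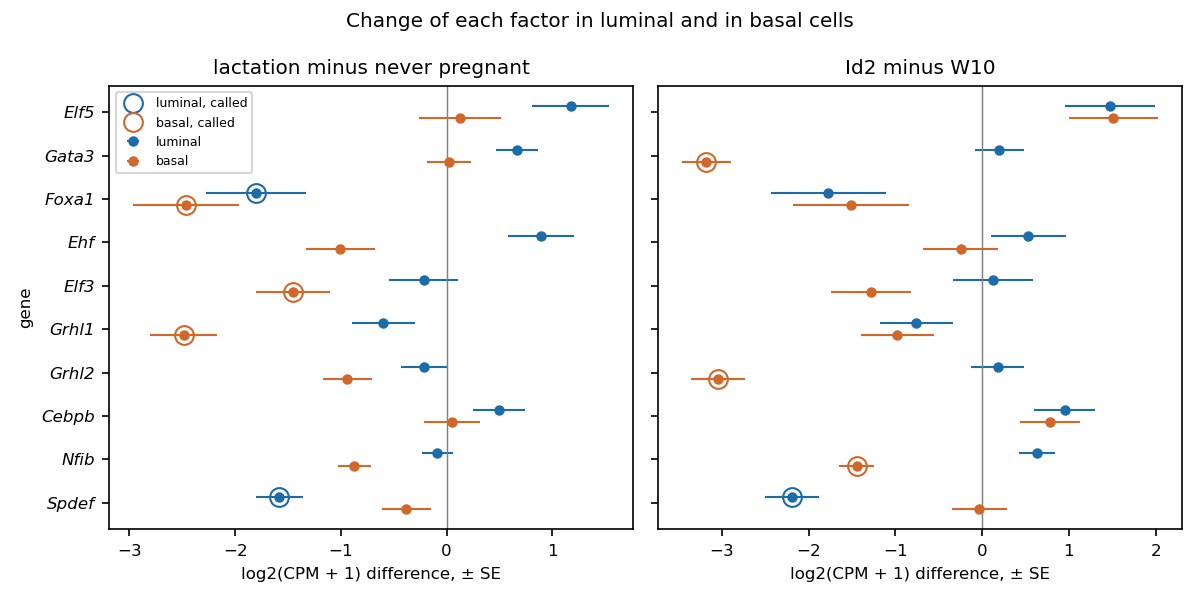
Difference of each factor (log2(CPM + 1), points with SE bars) between lactation and the never-pregnant gland and between Id2 and W10, in luminal (blue) and basal (orange) cells, with rings for calls. *Foxa1* is ringed left of 0 in both cell types in the lactation panel, and *Gata3*, *Grhl2* and *Nfib* are ringed left of 0 in basal cells at Id2.

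The lists of related genes were compared by the same fit, and list genes named for lactation were chosen after their values were seen. In the average, 7.35% of all genes were called higher and 13.6% lower in luminal cells. In luminal lactation 7.37% were called higher and 5.83% lower, and in basal lactation 9.58% higher and 6.97% lower. Without basal Id2 replicates 2 and 6, the list counts in the average were the same, except that 5 family relatives in place of 6 were called lower. The first list holds relatives from the same DNA-binding families. Of 20 listed, 18 were in the table, 1 was called higher and 6 were called lower in luminal cells (median -0.69). The one called higher was *Ets2* (1.71 ± 0.11). The lower ones were *Etv5* (-3.03 ± 0.16), *Ets1* (-1.76 ± 0.22), *Etv4* (-1.25 ± 0.23), *Nfix* (-1.22 ± 0.11), *Gata6* (-1.15 ± 0.21) and *Elf4* (-1.05 ± 0.18). In luminal lactation the third grainyhead gene *Grhl3* rose by 1.90 ± 0.48 (adjusted p = 0.00206) and *Cebpd* by 1.51 ± 0.27 (adjusted p = 4.68e-05). *Elf1* was called lower there (-1.06 ± 0.23).

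Other regulators known from luminal cells divided between the fractions. Of 20, 7 were called higher and 3 lower in luminal cells (median 0.72). The largest were *Cited1*, a transcriptional co-regulator (3.14 ± 0.37), *Tfcp2l1*, of the grainyhead superfamily (2.34 ± 0.18), *Msx2* (2.10 ± 0.21) and *Trps1*, a GATA-type repressor (1.90 ± 0.14). Among the lower ones were *Tfap2c* (-1.66 ± 0.13) and *Tbx3* (-1.08 ± 0.15). In luminal lactation 5 were called lower, led by the progesterone receptor *Pgr* (-3.53 ± 0.49), and 1 higher, *Xbp1* (1.04 ± 0.17).

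Hormone-sensing luminal genes were called higher in luminal cells for 8 of 10 (median 1.98), led by the prolactin receptor *Prlr* (3.63 ± 0.29) and *Cyp24a1* (3.13 ± 0.28). In luminal lactation 4 were called lower, *Areg* (-2.97 ± 0.56), *Prom1* (-2.30 ± 0.45), *Fgfr2* (-1.89 ± 0.30) and *Tnfsf11* (-1.67 ± 0.49). Called higher were *Cyp24a1* (2.38 ± 0.54) and *Greb1* (1.39 ± 0.38).

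The list of epithelial junction genes also holds genes that are not junction components, such as *Ovol1*, *Ovol2*, *Esrp1*, *Esrp2*, *Rab25* and *St14*. Its counts thus do not describe junctions alone. Of its 12 genes, 11 were called higher in luminal cells and none lower (median 2.55), led by the claudins *Cldn4* (3.68 ± 0.26), *Cldn7* (3.61 ± 0.21) and *Cldn3* (3.55 ± 0.20). None was called in luminal lactation or in luminal Id2 against W10. In basal lactation 8 were called lower, with *Ovol1* (-2.73 ± 0.46) and *Epcam* (-2.32 ± 0.33) first.

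All 7 milk protein genes were called higher in luminal cells (median 3.71), led by *Csn2* (4.08 ± 0.31). Of 9 basal regulators and contractile genes in the table, 8 were called lower in luminal cells (median -4.58), led by *Snai2* (-5.50 ± 0.18), *Tagln* (-5.39 ± 0.17) and *Trp63* (-4.86 ± 0.25).

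The genes whose levels ran most like each factor were taken over the 24 luminal libraries by Pearson's r, as a description of libraries that share time points and sorts. *Elf5* ran with *Prkaa2* (0.933), *Hlf* (0.930) and *Atp13a4* (0.928), and *Foxa1* with *Fgfr2* (0.940), *Samd5* (0.916) and *Lmo7* (0.915). *Ehf* ran with *Gpt* (0.880), *Slc26a2* (0.872) and *Pik3r1* (0.842), *Elf3* with *Ston2* (0.928), *Eya2* (0.873) and *Rbpms* (0.862), and *Cebpb* with *Rhob* (0.909), *Pim3* (0.883) and *Tnfaip3* (0.872). *Spdef* ran with *Piezo2* (0.864), *Adamts3* (0.839) and *Abcc8* (0.834), and *Nfib* with *Parp9* (0.847), *Lyn* (0.831) and *Ogfrl1* (0.786). With a pseudocount of 0.1, *Spdef* had 0.791 with *Piezo2* and 0.698 with *Abcc8*. *Gata3* ran with *Hspa1b* (0.854), *Hspa1a* (0.844) and *Mrps6* (0.841), of which the near-identical heat shock genes can share reads, and its r with *Hspa1b* was 0.930 without L3 luminal replicate 6. *Grhl1* ran with *Zfp266* (0.804), *Lsm14a* (0.796) and *Amer1* (0.784), and *Grhl2* with *Taf4* (0.771), *Runx2* (0.758) and *Mtmr12* (0.750).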

How the data were processed

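RNA from sorted luminal and basal cells was amplified from small inputs and sequenced. The authors aligned reads with GSNAP, counted them per Ensembl gene with HTSeq and scaled them with edgeR. The deposited values are normalized counts (CPM), a signal per gene in which each library is divided by its scaled size, and low genes had been removed by the authors. Every value (100%) was a whole multiple of 1 read within a tolerance of 1e-06, so reads were recovered. Whether strand was used in counting is not given in the sources used here. A basal P14.5 sample without values was not analysed here.

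Here limma 3.58.1 in R 4.3.3 was fitted to log2(CPM + 1) in 1 model of 16 conditions and 46 libraries with a mean-variance trend, and adjusted over 17078 genes. Changes were called at a fold of 2 and an adjusted p under 0.01, and variation over time by an F test at 0.01. edgeR 4.0.16 on the recovered reads was the alternative test, and it called 4861 genes between the fractions on average against 3580 with limma. The limma and edgeR procedures, not the comparisons of time points, were tried on simulated data. Other alternatives were a pseudocount of 0.1, median-ratio scaling, scaling without milk protein genes, a mean filter of 5 CPM, an FDR of 0.05, the sort as a block, only the libraries compared, and each library left out.

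Luminal and basal cells of a sort came from the same pool of mice. Over 22 such pairs the median correlation of deviations from the group means was 0.25, and 21 were positive. Pools are separate sorts, so p-values measure the spread between pools of 4 mice.

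All 10 factors were named, with up to 4 genes a list called in each direction between the fractions, genes called against their list, and the 3 most correlated genes per factor. For family relatives all 6 genes called lower were named. The members and lists were chosen with earlier results of these data known. Gene names and positions came from GENCODE M21 (GRCm38), not the build of the files, and 181 identifiers had no name there. The values of 1 listed regulator are not reported here.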

Additional observations from a re-analysis of the deposited data

Results flagged for a closer look

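A closer look is due for 7 results, in which the change of a factor differed between luminal and basal cells in a test of that difference (limma, adjusted p under 0.01 and a fold of at least 2). With lactation these were *Ehf* (1.90), *Grhl1* (1.89) and *Spdef* (-1.20), as luminal minus basal log2 differences. From W10 to Id2 they were *Gata3* (3.38), *Grhl2* (3.23), *Nfib* (2.08) and *Spdef* (-2.16). Basal Id2 libraries held fibroblast marker sums of 3023 to 71669 CPM against 220.5 to 349 CPM at W10, and the part of these markers in the Id2 results was not tested. *Spdef* had at most 3 reads in each luminal Id2 library.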

How the results depend on the processing

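Scaling without milk protein genes moved the median of all genes by -0.31 log2 units in luminal lactation, -0.31 in basal lactation, -0.33 in luminal Id2 against W10 and -0.24 in basal Id2 against W10. The same scaling moved this median by 0.45 in luminal and 0.41 in basal Iw4 against Id2. Between luminal and basal cells at L10, the same scaling moved it by 0.19. Under this scaling, calls on the factors numbered 4 over the luminal steps (2 as reported), 12 over the basal steps (8 as reported), 2 in luminal Id2 against W10 (1 as reported) and 6 in basal lactation (3 as reported), family relatives higher in luminal cells numbered 3 (1 as reported), and luminal Id2 against W10 turned to -0.30 for *Gata3* and -0.32 for *Grhl2*. With a pseudocount of 0.1 or with edgeR, luminal steps held 1 call on a factor, luminal lactation 1, and family relatives higher in luminal cells 2. With the mean filter of 5 CPM, which leaves out *Spdef*, luminal steps and luminal lactation held 1 call each and luminal Id2 against W10 held 0. With an FDR of 0.05 the counts were 4 in luminal steps, 2 in luminal and 5 in basal Id2 against W10. With only the libraries compared they were 4 in basal steps (8 as reported), 3 in luminal Id2 against W10 and 5 for basal variation over time (8 as reported). It also lost 14 of the 43 calls of factors at single time points, against 4 with a pseudocount of 0.1, 4 with edgeR, 3 with the mean filter and 1 with median-ratio scaling. Comparing only those libraries gave no value for averages and differences, and edgeR gave none for the F tests. Without Id2 the average of *Nfib* was -0.0929 (0.0829 as reported, neither called). Apart from edgeR, the share of all genes called under these settings, or with 1 library left out, is not given here. A changed count of factors is thus no result about the factors. With edgeR, 2623 of 17078 genes were called in luminal lactation, against 2254 with limma. The cause of the changes under these settings was not tested.

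Leaving out 1 library each, the counts ranged from 1 to 3 in luminal steps, 5 to 10 in basal steps (5 without P14.5 basal replicate 5), 1 to 3 in luminal lactation (1 without L3 luminal replicate 6), 1 to 2 in luminal Id2 against W10 (2 without W10 luminal replicate 3) and 4 to 7 in luminal variation over time (4 without L3 luminal replicate 6 or Id2 luminal replicate 2). They ranged from 0 to 3 for lactation differences between cell types (0 without L10 basal replicate 6) and from 1 to 2 for family relatives higher in luminal cells. With single W10 luminal libraries left out, luminal Id2 against W10, not called in any of these fits, ranged from -0.0553 (without replicate 5) to 0.343 (without replicate 6) for *Gata3* and from -0.0829 (without replicate 3) to 0.413 (without replicate 6) for *Grhl2*.

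With the sort as a replicate block, the luminal F test of *Gata3* went from 3.80 to 3.61 (adjusted p = 0.0129), and *Ehf* at P14.5 and *Spdef* at M4 were also called higher in luminal cells, with no other change of a call on a factor. The exclusions of Id2 libraries and the Id2 difference between cell types were chosen after seeing the data. With edgeR the genes called fell from 311 to 199 in luminal P3.5 against W10, from 65 to 15 in luminal and from 194 to 69 in basal L10 against L3, from 665 to 372 in basal L3 against P14.5, and from 1169 to 740 in the Id2 difference between cell types. Depth limits *Spdef*, at or under 3 reads in many libraries.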
